A study of Mus musculus with 2 samples.

Results

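The microRNA (miRNA) genes of the Hox clusters were examined in the adrenal gland of the mouse. The 6 genes were Mir10a, Mir10b, Mir196a-1, Mir196a-2, Mir196b and Mir615, out of 2202 annotated miRNA genes. They were chosen by name and by position inside the Hoxa, Hoxb, Hoxc and Hoxd clusters, by a rule that uses no counts, although earlier results of these data were known when they were chosen. The samples formed 1 group of 2 libraries, replicates 1 and 2, from adult male adrenal tissue of 8 to 10 months of a strain given as 5xFAD/CAST. That label joins 5xFAD, a transgenic model of Alzheimer's disease whose transgenes are driven by the neuronal Thy1 promoter, to CAST, a wild-derived inbred strain. The labels do not give transgene status. RNA below 30 nucleotides was sequenced. Both libraries carry the same donor record and different sample records, so they may come from 1 animal, and every SD with n = 2 is a spread between libraries that may be technical. There was no second group, so the data describe levels, their order and the match between the libraries.

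Hox genes encode transcription factors that set position along the body axis, and they lie in clusters whose order follows that axis. The miRNA genes inside the clusters repress messenger RNAs, among them those of Hox genes, with miR-196 and Hoxb8 in the mouse as a classic pair. In the mouse, Hox proteins with their PBX cofactors act on the fetal adrenal enhancer of Nr5a1, the gene of a master regulator of steroid-producing cells. A mature miRNA finds its targets mainly through its seed, bases 2 to 8 from its 5′ end.

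The 6 genes formed 3 families by the seed of their best-known arm, 5p for mir-10 and mir-196 and 3p for mir-615. The mature sequences below are those of RefSeq on GRCm38.p6, with the seed in capitals and U for uracil, and they show which members share a seed. All 6 genes had mature entries there.
mmu-miR-10a-5p: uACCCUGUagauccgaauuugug
mmu-miR-10b-5p: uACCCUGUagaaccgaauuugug
mmu-miR-196a-5p: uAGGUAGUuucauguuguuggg
mmu-miR-196b-5p: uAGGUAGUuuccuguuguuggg
mmu-miR-615-3p: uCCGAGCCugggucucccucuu

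The 5p arms of mir-10 shared the seed ACCCUGU and were the same at 22 of 23 positions. Counted from 1 at the 5′ end of miR-10a-5p, the only difference was U12A in miR-10b-5p. The mir-196 5p arms shared the seed AGGUAGU and were the same at 21 of 22 positions, and their only difference was A12C from miR-196a-5p to miR-196b-5p. So both paralogous pairs differed at position 12, outside the seed. Among 1679 mature names in the table, no gene outside the 6 carried any of these 3 seeds. The 6 letters AGGUAG at bases 2 to 7 of miR-196 also stood at bases 3 to 8 of 11 other mature names. Of these, 9 were let-7 arms, 1 was a miR-98 arm and 1 was mmu-miR-1961.

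The hairpins show how far the copies differ outside the mature arms, and RefSeq held them for 5 of the 6 genes. Mature arms are in capitals.
Mir10a hairpin: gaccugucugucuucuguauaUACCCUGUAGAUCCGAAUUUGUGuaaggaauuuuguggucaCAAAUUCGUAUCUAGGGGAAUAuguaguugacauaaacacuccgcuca
Mir10b hairpin: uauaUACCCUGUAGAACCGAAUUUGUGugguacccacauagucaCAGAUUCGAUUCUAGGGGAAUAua
Mir196a-1 hairpin: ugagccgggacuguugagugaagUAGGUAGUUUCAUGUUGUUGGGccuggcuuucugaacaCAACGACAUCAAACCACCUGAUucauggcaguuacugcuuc
Mir196a-2 hairpin: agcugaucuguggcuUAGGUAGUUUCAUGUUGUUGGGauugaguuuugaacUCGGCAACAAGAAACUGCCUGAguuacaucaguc
Mir196b hairpin: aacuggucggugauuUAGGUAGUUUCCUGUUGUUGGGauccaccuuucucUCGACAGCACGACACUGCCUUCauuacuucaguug

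The longest run common to the Mir196a-1 and Mir196a-2 hairpins was 22 bases, and it was the mature miR-196a-5p itself. A read with no base beyond that run matched both genes, and reads that map to several places were assigned to no gene. If no read was given to the wrong copy, which was not checked, the counts of Mir196a-1 and Mir196a-2 are therefore lower limits. They rest on longer reads or on the 3p arms. Compared letter by letter from the 5′ end, without alignment, those 3p arms were the same at 5 of 22 positions between the copies. This count does not measure how far they differ, since the annotated arms are out of register. In the GENCODE M21 hairpin sequences, which include Mir615, the other 4 genes shared no run of 20 bases with any other counted hairpin. Mir10a and Mir10b shared a run of at most 15 bases, and within the 5p arm their reads are told apart by 1 base. A CAST variant at that base would move reads between them, which was not tested. Predicted folding energies ran from −0.309 kcal/mol per base for Mir10a to −0.529 for Mir196a-2. The entries hold different lengths of flank, with 110 bases for Mir10a and 85 for Mir196a-2. Energy per base therefore does not compare the stems alone. The GC content of these 5 hairpins lay between 39.7% and 48.0%. Single arms are a different measure. The 3p arms ran from 36.4% in Mir10a to 59.1% in Mir196b and 63.6% in Mir615.

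Each of the 6 genes lay on the strand of the Hox genes around it, on GRCm38 (mm10) with GENCODE M21. Mir10a (ENSMUSG00000065519.1) is on chromosome 11 from 96317165 to 96317274, between Hoxb5 and Hoxb4 and 992 bases before the annotated start of Hoxb4, in no other gene. Mir196a-1 (ENSMUSG00000065546.1) lies in the same cluster at 96265164 to 96265265, between Hoxb13 and Hoxb9 and 6191 bases before Hoxb9, in no other gene. Mir10b (ENSMUSG00000065500.3) lies on chromosome 2 at 74726070 to 74726137 in introns of Hoxd4 and Hoxd3. Mir196a-2 (ENSMUSG00000065488.2) lies on chromosome 15 at 102973350 to 102973434, between Hoxc10 and Hoxc9, and is intronic in 1 long Hoxc5 transcript. Mir615 (ENSMUSG00000076010.1) lies on chromosome 15 at 103014910 to 103015001 in an intron of Hoxc5. Mir196b (ENSMUSG00000065443.1) is on chromosome 6, minus strand, from 52230081 to 52230165, inside Hoxa9. It overlaps an exon of 2 Hoxa9 transcripts and is intronic in 1.

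The 4 clusters held 7 annotated miRNA genes, the 6 and 1 more. That one, Gm44463 (ENSMUSG00000104570.1), lies on chromosome 2 at 74701006 to 74701142 on the strand opposite to the Hoxd genes. It had 0 reads in both libraries, which allows up to 0.442 CPM (scaled counts, defined in the next sentence) in replicate 1 and 0.973 CPM in replicate 2. Here CPM is the number of reads on the gene's own strand, its sense reads, per 1000000 sense reads of all miRNA genes. Those limits are 3 reads, and all limits and intervals given here cover counting error only.

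**Figure D1:**
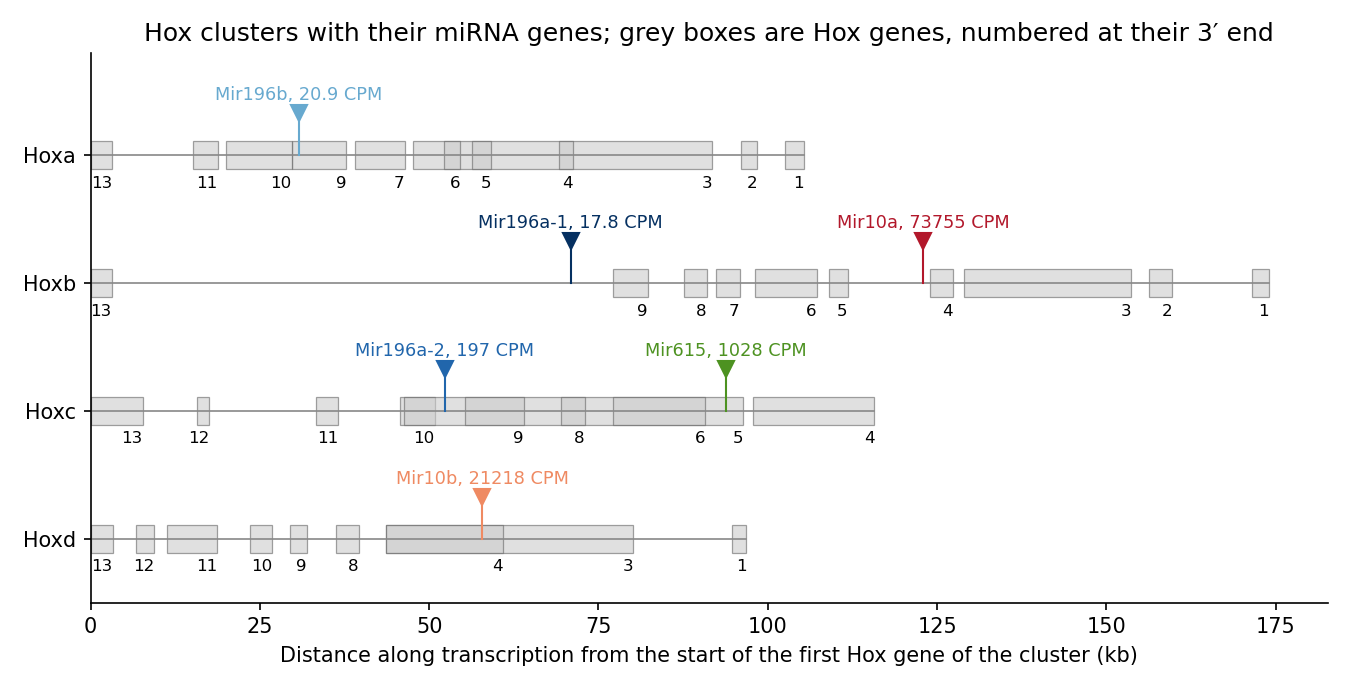
Maps of the 4 Hox clusters along the direction of transcription, in kb from the start of the first Hox gene, with grey boxes for Hox genes and triangles for the 6 miRNA genes, labelled with mean CPM (n = 2). Mir10a at 73755 CPM and Mir196a-1 at 17.8 CPM lie in the same Hoxb cluster.

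The libraries held 6783227 sense miRNA reads in replicate 1 and 3084602 in replicate 2. Multimapping reads, which no gene received, were 30.3% and 32.1% of all reads. Any miRNA gene with copies may lose shared reads in this way. Ranks, shares and counts of genes above or below another therefore hold for assigned reads only. The tissue label was set against marker genes. The neuroendocrine list, Mir375 and the mir-7 genes, reached 63615 and 87243 CPM in replicates 1 and 2, with 4 of 4 genes detected above 2 CPM in both. Cortical cells had no marker in the lists used. Endothelial Mir126a was at 92610 and 52519 CPM. The kidney list, an organ next to the adrenal gland, summed to 109 and 95.6 CPM over 4 genes, of which Mir194-1 had 0 reads in both. The striated muscle list was at 3.69 and 3.57 CPM with 4 of 5 genes at 0, and the liver marker Mir122 was at 257 and 57.7 CPM. Some listed genes have copies, such as Mir194-1, Mir1a-1 and Mir133a-1, and reads shared between copies went to no gene. A count of 0 or a low sum in the kidney or striated muscle list therefore does not show that tissue absent. In bulk tissue, fewer cells of a type and less RNA per cell cannot be told apart.

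By assigned reads, Mir10a dominated the Hox cluster miRNAs of the adrenal gland, Mir10b came next and Mir615 followed. Mir196b was low, and the low counts of Mir196a-1 and Mir196a-2 are, under the condition given above, lower limits of unknown distance from the true level. Together the 6 genes held 11.0% of sense miRNA reads in replicate 1 (Wilson 95% interval 10.99 to 11.03) and 8.24% in replicate 2 (8.21 to 8.27), a mean of 9.62% ± 1.96 (SD, n = 2). The mir-10 genes made up 98.8% and 98.5% of the reads of the 6, Mir615 0.981% and 1.18%, and the mir-196 genes 0.220% and 0.279%.

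Mir10a, whose miRNA is broadly expressed in trunk tissues and in endothelium, had 549315 reads in replicate 1 and 205215 in replicate 2. These were 80981 and 66529 CPM, a mean of 73755 ± 10219 CPM (SD, n = 2). By assigned reads, the gene was at rank 3 of all miRNA genes in replicate 1 and rank 4 in replicate 2. Its level was above 273 of the 279 other genes of at least 10 CPM by more than the replicate spread and below 1, Mirlet7g. A pair counts as ordered here when both libraries order it alike and both gaps exceed the replicate difference of either gene. The other 5, Mir26b, Mir375, Mir126a, Mir23a and Mirlet7b, were not ordered against it.

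Mir10b, the Hoxd paralog, known in human breast cancer cells for its repression of HOXD10, had 188567 and 45151 reads. Its level was 27799 CPM in the first library and 14638 CPM in the other, a mean of 21218 ± 9307 CPM. Replicate 1 was the higher library for both mir-10 genes. Mir10a exceeded Mir10b 2.91-fold in replicate 1 and 4.55-fold in replicate 2, and the pair was ordered beyond the replicate spread. Mir10a therefore held 74.4% (74.3 to 74.5) of mir-10 reads in replicate 1 and 82.0% (81.8 to 82.1) in replicate 2, and these counting intervals do not overlap.

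Mir615, in the Hoxc5 intron, had 7330 and 3007 reads, which is 1081 and 975 CPM and a mean of 1028 ± 74.8 CPM. Its level was at rank 63 and rank 72 in the libraries. Mir10b exceeded it 25.7-fold and 15.0-fold. By assigned reads, Mir615 stood 5.28-fold and 5.13-fold above Mir196a-2, its neighbour in the Hoxc cluster. This is an upper limit if no read went to the wrong copy and no Mir615 read was lost to multimapping. The true order of these genes is uncertain, since shared miR-196a-5p reads were not counted. The ratio differed between the libraries by far less than that of Mir10b to Mir615.

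Among the mir-196 genes, whose miRNA is typical of posterior body regions, Mir196a-2 had the most assigned reads. It had 1387 and 586 reads, or 204 and 190 CPM, with a mean of 197 ± 10.3 CPM. Mir196b had 145 and 63 reads, or 21.4 and 20.4 CPM, with a mean of 20.9 ± 0.673 CPM. Mir196a-1 had 112 and 59 reads, or 16.5 and 19.1 CPM, with a mean of 17.8 ± 1.85 CPM. The levels of Mir196b and Mir196a-1 were not ordered, as their gaps of 4.86 and 1.30 CPM did not both exceed the replicate difference of 2.62 CPM. Mir196a-2 held 84.4% (82.5 to 86.0) and 82.8% (79.8 to 85.4) of the assigned mir-196 reads. Because miR-196a-5p reads common to both copies were not counted, the order of Mir196a-1 and Mir196a-2 against the other genes is uncertain and the family level is a lower limit.

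**Figure D2:**
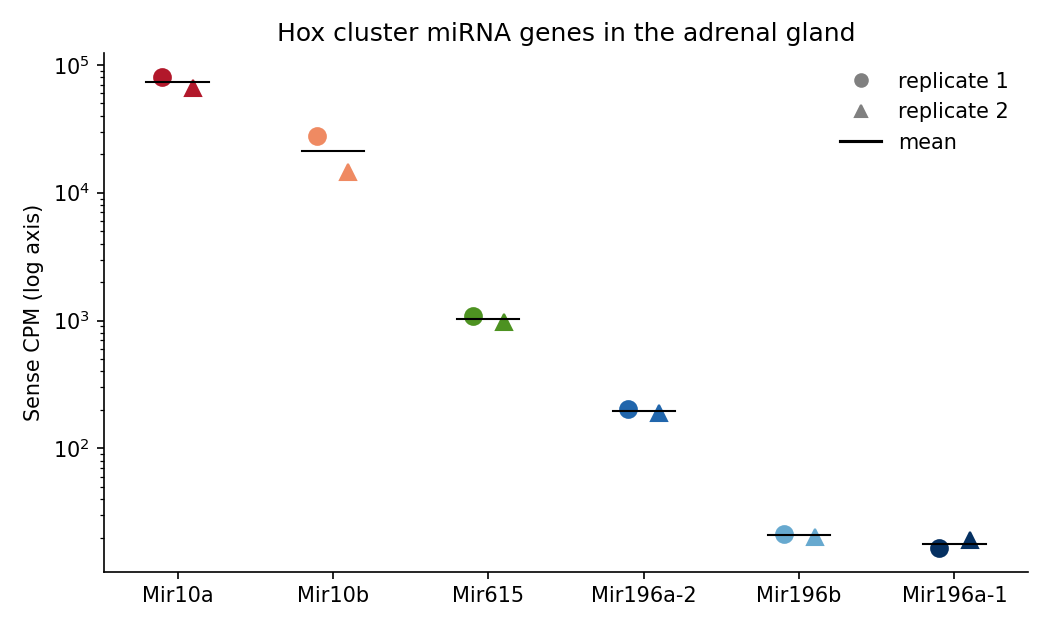
Sense CPM on a log axis for the 6 genes, with circles for replicate 1, triangles for replicate 2 and bars for the mean. Means fall from 73755 CPM for Mir10a to 17.8 CPM for Mir196a-1, and the visible gap between the libraries is that of Mir10b at 27799 and 14638 CPM.

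By assigned reads, 14 of the 15 pairs among the 6 genes were ordered beyond the replicate spread, in the order Mir10a, Mir10b, Mir615, Mir196a-2, then Mir196b with Mir196a-1. The places of Mir196a-2 and Mir196a-1 rest on lower limits, so their order against the other genes is uncertain. The order of Mir10b over Mir615 was near the limit of the rule, with a gap of 13663 CPM in replicate 2 against a replicate difference of 13161 CPM for Mir10b. That reflects the replicate difference of Mir10b and not closeness to Mir615, which Mir10b exceeded 25.7-fold and 15.0-fold. Under TMM scaling, DESeq2 size factors or all reads as denominator, Mir10b was not ordered by this rule above the 4 lower genes of the 6. It was nevertheless higher than these in both libraries. With these, Mir10b differed more than 2-fold between the libraries, and the rule on CPM can then order no gene below it, whatever its level. On the log2(CPM + 1) scale the same 14 pairs were ordered.

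**Figure D3:**
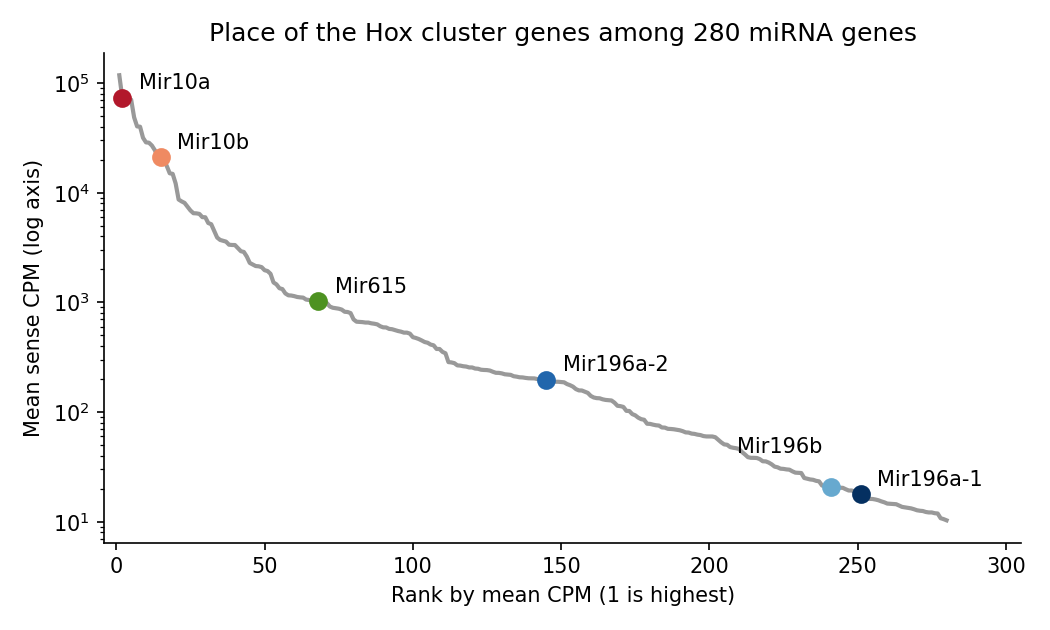
Mean CPM on a log axis against rank for the 280 miRNA genes with a mean of at least 10 CPM, with the 6 Hox cluster genes marked. By mean CPM, Mir10a is at rank 2, Mir10b at 15, Mir615 at 68, Mir196a-2 at 145, Mir196b at 241 and Mir196a-1 at 251.

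The mir-10 genes, at Hox group 4, exceeded the mir-196 genes, at Hox group 9, by 449-fold in replicate 1 and 354-fold in replicate 2. Shared miR-196a-5p reads are missing from the mir-196 side, so the ratio is an upper limit if no mir-10 reads were lost, which was not checked. Within the Hoxb cluster, Mir10a exceeded Mir196a-1 by 4905-fold and 3478-fold. This is an upper limit under the same condition and if no read went to the wrong copy. By cluster, Hoxb genes held 73.6% and 80.8% of the reads of the 6 genes, Hoxd 25.2% and 17.8%, Hoxc 1.17% and 1.41%, and Hoxa 0.0194% and 0.0248%.

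On the opposite strand, each of the 6 genes had 0 reads in both libraries, and the column for both strands gave the same counts for them as the sense column. A count of 0 allows up to 3 reads per gene and library.

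The mir-99 and mir-100 genes are the closest relatives of mir-10 outside the Hox clusters. Their 5p arms, shown beside those of mir-10 above, carry the seed ACCCGUA in place of ACCCUGU.
mmu-miR-99a-5p: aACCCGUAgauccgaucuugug
mmu-miR-99b-5p: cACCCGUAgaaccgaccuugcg
mmu-miR-100-5p: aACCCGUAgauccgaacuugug

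Mir99a was at 31396 and 26235 CPM, Mir99b at 8663 and 7512 CPM, and Mir100 at 3512 and 3212 CPM. Mir10a was above all 3 by more than the replicate spread, and Mir615 was below all 3. Mir10b was higher than Mir99b and Mir100 and lower than Mir99a in both libraries. By the rule on CPM it was ordered against none of the 3, because its own replicate difference was larger than at least 1 gap to each of them. The rule was not applied to these pairs on the log2 scale.

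Between the replicates, 5 of the 6 genes differed by less than 0.5 in log2, and Mir10b was the exception. Of all 280 genes of at least 10 CPM, 199 differed by less than 0.5. Differences are log2(CPM + 1) of replicate 2 minus replicate 1. A call needed an absolute difference of at least 1 and, by Fisher's exact test on the reads (two-sided), a p under 0.05 after Benjamini-Hochberg adjustment. This test compares the reads of 2 libraries, not animals or conditions. Over the 280 genes 10.7% were called, 17 (6.07%) higher and 13 (4.64%) lower in replicate 2. With TMM the split was 12 higher and 17 lower, and with DESeq2 size factors 8 and 17. Of the 6 Hox cluster genes, 0 were called, and 3 had an adjusted p under 0.05 in Fisher's exact test, against 69.3% of the 280. The median difference of the 6 was −0.13, beside 0.012 over all 280. The median absolute difference was 0.175 for the 6 and 0.276 for the 280.

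Mir10b differed by −0.93 (exact 95% interval −0.94 to −0.91), a 1.90-fold lower level in replicate 2, and 245 of the 280 genes differed by less. Under TMM its difference was −1.03 and under DESeq2 size factors −1.06, so it was called with either. Both scalings were estimated over all 2202 genes without a filter on low counts, so genes with few reads entered them. Those scalings moved the median of all genes from 0.012 to −0.089 and −0.124. Relative to that median Mir10b stood at −0.94 under all 3. Mir126a, the endothelial marker, was lower in replicate 2 by a difference of −0.82 and the red cell marker Mir451a by −1.46, while Mir375 was higher by 0.49. Other members of those lists differed less. The erythroid Mir144 and Mir486 differed by −0.028 and −0.15, and the neuroendocrine Mir7-1, Mir7-2 and Mir7b by −0.099, 0.34 and −0.036. Of the other marker lists, the liver marker Mir122 differed by −2.14. Summed over their genes, the epithelial list differed by −0.37, smooth muscle by −0.20, kidney by −0.19, striated muscle by −0.037 and leukocyte by 0.18. The part of any of these cell types in the Mir10b difference was not tested.

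Mir10a differed by −0.28 (−0.29 to −0.28) and Mir615 by −0.15 (−0.21 to −0.087), both lower in replicate 2 beyond counting error and well short of a 2-fold change. Mir615 had an adjusted p of 3.7e-06 in Fisher's exact test. Mir196a-2 differed by −0.11 (−0.25 to 0.034), Mir196b by −0.063 (−0.52 to 0.37) and Mir196a-1 by 0.20 (−0.27 to 0.68). For these 3 the interval included 0. For Mir196b and Mir196a-1, with 63 and 59 reads in replicate 2, the intervals were wide, and any difference within them was compatible with the reads.

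**Figure D4:**
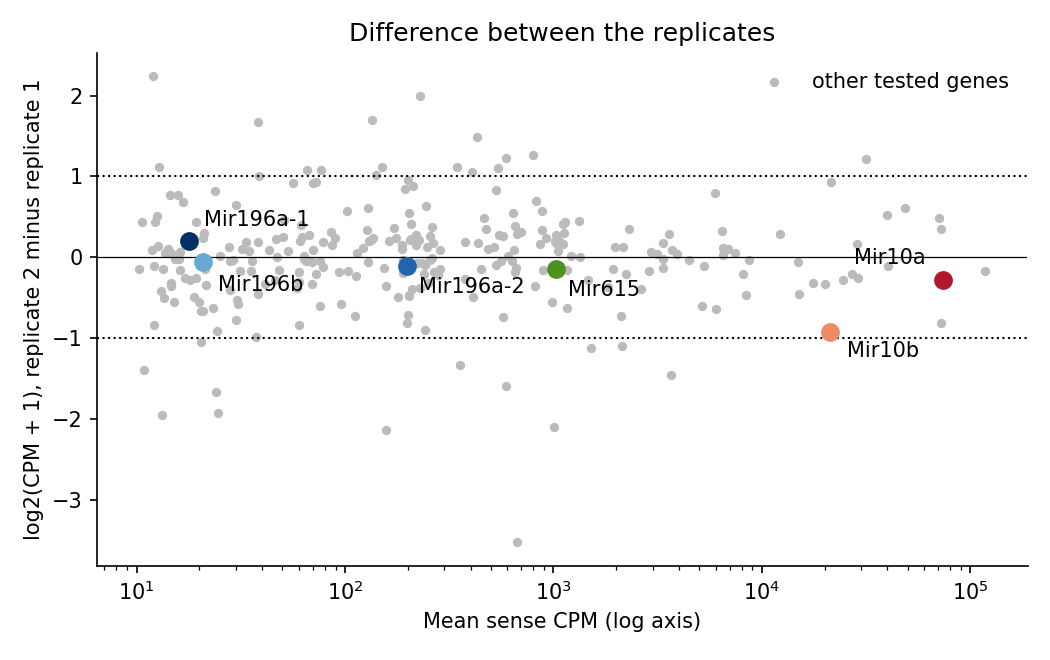
Difference of log2(CPM + 1), replicate 2 minus replicate 1, against mean CPM on a log axis for 280 genes, with the 6 Hox cluster genes coloured and dotted lines at −1 and 1. Mir10b at −0.93 lies just inside the lower line, and the other 5 lie between −0.28 and 0.20.

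The genes nearest to each member were found by distance in log2(CPM + 1) over the 2 libraries, which reflects level more than pattern. Mir126a, Mirlet7b and Mir375 were nearest to Mir10a at distances of 0.392, 0.453 and 0.558. Mir322 was nearest to Mir10b (0.423), followed by Mir379 and Mir127. Mir140, Mir423 and Mir532 were nearest to Mir615, between 0.166 and 0.240. Mir500, Mir144 and Mir30c-2 stood within 0.105 of Mir196a-2. Mir138-2 was nearest to Mir196b at 0.0687, followed by Mir8112 and Mir29b-1, and Mir1188 was nearest to Mir196a-1 at 0.208, followed by Mir493 and Mir184. The distances of Mir10a and Mir10b to their nearest genes were larger than those of the other 4.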

How the data were processed

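Small RNA below 30 nucleotides from the adrenal gland was measured by microRNA sequencing in 2 libraries of 1 group. The authors deposited raw read counts per miRNA gene for both strands, the sense strand and the opposite strand, on mm10 with GENCODE M21 per the text beside each table. Aligner, version and adapter trimming: not given in the sources used here for these tables. The table layout identified the strand columns, and 88.6% and 91.8% of stranded reads were sense. A count joins both arms of a hairpin.

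Sense counts were scaled to CPM over 6783227 and 3084602 sense reads, without the mapping lines. The members and lists were chosen with earlier results of these data known. With 1 group, edgeR's quasi-likelihood test had no contrast. Replicates were compared with Fisher's exact test (scipy 1.17.1, Benjamini-Hochberg over 280 genes, pseudocount 1 CPM). The test was run on simulated data with counting error only, so that run says nothing of other variation between libraries. Adjusted p-values of Mir10a and Mir10b were below the smallest number the software holds. Alternatives used TMM (edgeR 4.0.16), DESeq2 1.42.0 size factors, other denominators, strand columns, pseudocounts and filters. Hairpins were folded with ViennaRNA 2.7.2. Named genes were the 6 members, other miRNA genes in the clusters, seed relatives, Mir99a, Mir99b, Mir100 and the 3 nearest genes by level. Genes left unordered against Mir10a were named after their values were seen.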

Additional observations from a re-analysis of the deposited data

Results flagged for a closer look

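Reads that mapped to several places numbered 4001595 in replicate 1 and 2084009 in replicate 2, and no gene received them. They lie outside every level given above, and the tables do not say how many carried miR-196a-5p.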

How the results depend on the processing

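Of 89 values recomputed under alternatives, 14 moved by more than the replicate SD or, for counts of genes, by over 1.5 times, 2 gained a call and 73 stayed within these limits. The 73 include counts of ordered pairs that fell by less than 1.5 times. They also include values that could not move. With n = 2 each library lies closer to the mean than the SD, so leaving out a replicate never counts as a move. Ratios between the 6 genes use the same counts in the column for both strands. The 73 therefore overstate how many results were put to a test. With all reads of the tables as denominator, mean CPM was 36622 for Mir10a, 10620 for Mir10b, 509 for Mir615, 97.7 for Mir196a-2, 10.3 for Mir196b and 8.79 for Mir196a-1, and the share of the 6 genes was 4.79%, because that denominator is larger by construction. With the column for both strands, whose total is smaller, Mir615 was at 1155 CPM, Mir196a-2 at 222, Mir196b at 23.5 and Mir196a-1 at 20.0 CPM. The difference of Mir10b was −1.03 under TMM and −1.06 under DESeq2 size factors, past the limit of 1. Without Mir196a-1 and Mir196a-2 the ratio of mir-10 to mir-196 reads was 4531 in place of 401, since fewer genes enter it. Ordered pairs, 14 as reported, numbered 13 with both strands and 14 on the log2 scale. They numbered 10 under TMM, DESeq2 size factors and all reads as denominator, where Mir10b lost its order over the 4 lower genes of the 6. The fall to 10 follows from the rule, which on CPM orders no gene below one whose libraries differ over 2-fold. The 30 genes called became 50 of 703 without a filter and 19 of 173 at 100 CPM or more, where other numbers of genes were tested. Leaving out 1 replicate gives the value of the other library. No paired analysis was possible because there was 1 group. Depth limits Mir196b and Mir196a-1, and uncounted multimapping reads limit the mir-196a genes.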
